A study of Mus musculus with 6 samples.

Results

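Cadherins are cell surface proteins whose extracellular repeats bind calcium and join neighbouring cells. Classical cadherins anchor the actin cytoskeleton through catenins, the giant Fat and Dachsous proteins carry signals of tissue polarity and growth, and protocadherins sort and space cells, best known between neurons. Cells of the ovarian surface are known for carrying the N-cadherin gene Cdh2 with little of the E-cadherin gene Cdh1. The genes described here are the 98 of 41327 gene rows whose symbol names a numbered cadherin (Cdh), a numbered or clustered protocadherin (Pcdh), Fat1 to Fat4 or Dchs1 and Dchs2. Members were taken by symbol alone.

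RNA was sequenced from ID8, an immortalized line from the ovarian surface epithelium of C57BL/6 mice, growing asynchronously and untreated. The group Trp53_KO (Trp53-/-) and the group Trp53_WT (Trp53+/+) each held 3 libraries, and the only comparison is between them. The labels do not say whether the libraries came from separate cultures or whether the knockout is 1 clone, so p-values here rest on library-to-library spread that may be technical, and genotype cannot be told apart from differences between the lines. In bulk RNA, fewer cells with a transcript and less RNA per cell also cannot be told apart.

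Library totals ran from 15319956 to 19954170 gene counts. Trp53 itself was at 25.3 to 29.6 CPM (library-scaled counts, with TMM factors from the trimmed mean of M values) in Trp53_KO and at 97.3 to 110.1 CPM in Trp53_WT, so the libraries followed their labels. Trp53_WT replicate 1 stood apart from the other Trp53_WT libraries (chi-square per degree of freedom 27.5 and 26.9, against 2.01 between the other pair), and several results are also given without it. Between pairs of Trp53_KO libraries the same measure was 6.00, 4.27 and 8.81. Markers of the labelled tissue were present: the 14 listed surface epithelium genes summed to 4271 to 4544 CPM in Trp53_KO and 4014 to 4098 CPM in Trp53_WT, although Lgr5 and Aldh1a2 had no count. Of the 12 tested, 5 rose and 4 fell, where 14.1% of all tested genes rose and 16.1% fell. Single markers moved far more than the sum: Bnc1 went from 38.9 CPM in Trp53_WT to 0.0726 in Trp53_KO, Lrrn4 from 0.235 to 65.5 and Upk3b from 73.7 to 531.0. Of 8 leukocyte markers 4 had no count, Cd3e among them, and the list summed to at most 5.25 CPM. Of 10 fibroblast and smooth muscle markers 6 were tested, of which 5 rose and none fell, where 14.1% of all tested genes rose. Their sum was 937.7 to 1120 CPM in Trp53_KO against 229.9 to 290.9 CPM in Trp53_WT, most of it from Col1a1, Col3a1 and Dcn. Lum had no count. Col1a2, Pdgfrb and Myh11 had 2, 1 and 2 counts in Trp53_KO and 1, 0 and 2 in Trp53_WT. Of 8 neural and glial markers 2 were tested, of which Map2 rose, and Tubb3, too low to test, had 31 counts in Trp53_KO and 0 in Trp53_WT. That list summed to 19.1 to 19.8 CPM against 4.80 to 6.95 CPM, with Rbfox3 at 0. The part of these lists in the results below was not tested.

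Across all libraries 27 of the 98 stayed at 0 counts, 42 had counts too low to test, and 29 were tested. Over all 41327 gene rows, 18744 stayed at 0 counts and 13651 were tested. At an adjusted p under 0.05 (edgeR quasi-likelihood test, Benjamini-Hochberg over all 13651 genes tested), 6 of the 29 were higher in Trp53_KO and 8 were lower. Together that is 48.3% of the tested members, where 30.3% of all tested genes were called. For higher calls the background was 14.1% and for lower calls 16.1%. The libraries of both genotypes did not overlap for 15 of the 29, against 46.0% of all tested genes. Their median log2 fold change was -0.05, and over all tested genes it was -0.02. The direction of the calls differed by family: 5 of 6 tested classical cadherins were higher and none was lower, 1 of 6 tested delta protocadherins was higher and 3 were lower, and among 15 tested clustered protocadherins none was higher and 4 were lower. These differences between families were not tested. The tallies also depend on the count filter, which a gene can pass on its counts in either genotype alone. Among the called members, Cdh3 (286 counts in Trp53_KO and 36 in Trp53_WT) and Cdh22 (46 and 20) passed on Trp53_KO alone. Pcdhgb6 (29 and 163) passed on Trp53_WT alone.

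**Figure D1:**
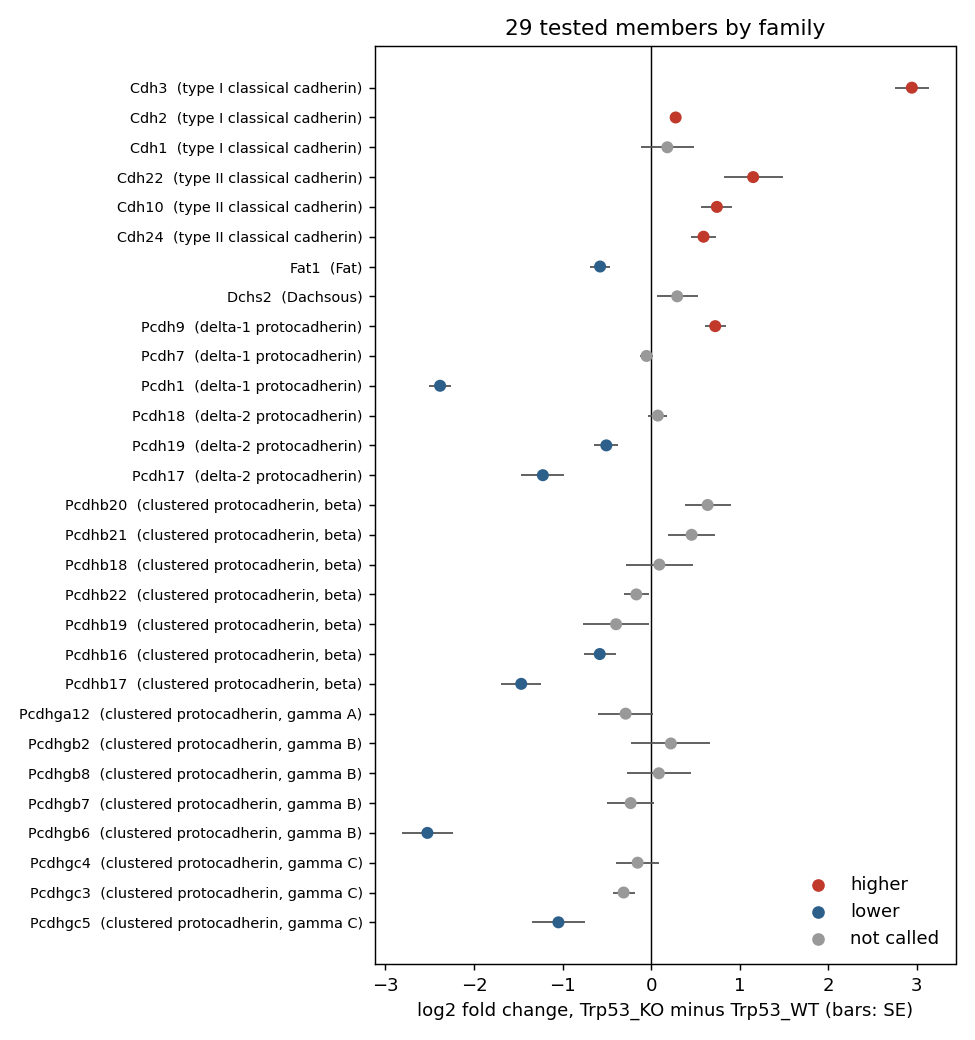
Log2 fold change (Trp53_KO minus Trp53_WT) with its standard error for the 29 tested members, grouped by family, red for higher, blue for lower and grey for not called. Cdh3 lies farthest to the right at 2.94, and Pcdhgb6 and Pcdh1 farthest to the left at -2.52 and -2.38.

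Levels were compared between genes per kilobase of exon, with exon lengths from GENCODE M21. In Trp53_WT, Fat1 had 41.6 ± 7.5 CPM per kb and Cdh2 32.6 ± 1.5, followed by Pcdh19 at 20.4 ± 4.7, Pcdh7 at 12.4 ± 0.48 and Pcdhgc3 at 11.5 ± 1.7 (SD, n = 3). In Trp53_KO the order of the leading pair was the other way round, with Cdh2 at 39.5 ± 1.7 CPM per kb and Fat1 at 27.9 ± 2.1. Pcdh7 and Pcdhgc3 did not differ beyond their spread in Trp53_WT. Of the 29 tested members, 20 lay under 1 CPM per kb in Trp53_WT and 19 in Trp53_KO, so a handful of genes supplied most of the family's RNA.

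Among type I classical cadherins, the P-cadherin gene Cdh3 changed most. Cdh3 lies on chromosome 8 from 106510891 to 106557297 (GRCm38, as for all coordinates here). It had 5.71, 4.89 and 4.95 CPM in the 3 Trp53_KO libraries, against 0.540, 0.791 and 0.643 CPM in Trp53_WT. Every Trp53_KO library was above every Trp53_WT library, by 7.69-fold in the fit (log2 fold change 2.94 ± 0.20 SE; edgeR p after Benjamini-Hochberg adjustment = 3.1e-06). Its neighbour Cdh1, which encodes E-cadherin and begins 46.1 kb after the end of Cdh3 on the same strand (chromosome 8, 106603351 to 106670246), was not called. Cdh1 was at 0.765, 0.905 and 0.638 CPM in Trp53_KO and at 0.878, 0.643 and 0.536 CPM in Trp53_WT. Its groups overlapped, and its log2 fold change was 0.18 ± 0.30 (SE; edgeR p after Benjamini-Hochberg adjustment = 0.70). Over the 3 libraries of a group Cdh1 had 42 counts in Trp53_KO and 36 in Trp53_WT, so only a large difference was detectable at this depth.

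Cdh2, on chromosome 18, was the most abundant classical cadherin. It was at 332.0, 319.1 and 304.3 CPM in Trp53_KO and at 274.3, 264.3 and 250 CPM in Trp53_WT. The groups did not overlap, but the step was small, 1.21-fold (log2 fold change 0.28 ± 0.06 SE; edgeR p after Benjamini-Hochberg adjustment = 0.0092). Per kilobase, Cdh2 stood at 39.5 against 0.168 for Cdh1 and 1.18 for Cdh3 in Trp53_KO, so N-cadherin RNA remained the leading classical cadherin in that genotype.

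Type II cadherins, which are best known in the nervous system, mesenchyme and blood vessels, gave 3 tested genes, each called higher. Cdh24 (chromosome 14, 54631231 to 54641364) was at 8.97, 7.43 and 7.82 CPM in Trp53_KO and at 5.60, 5.98 and 4.50 CPM in Trp53_WT, a log2 fold change of 0.59 ± 0.14 (SE; edgeR p after Benjamini-Hochberg adjustment = 0.012). Without Trp53_KO replicate 1 the Cdh24 call was lost (edgeR, adjusted p = 0.053; the alternatives spanned 8.8e-04 to 0.053). Cdh10 (chromosome 15, 18818947 to 19014236) was at 4.49, 3.80 and 3.19 CPM in Trp53_KO and at 2.16, 2.33 and 2.36 CPM in Trp53_WT. Its log2 fold change was 0.74 ± 0.17 (SE; edgeR p after Benjamini-Hochberg adjustment = 0.010).

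Of the other type II genes near Cdh10 on chromosome 15, Cdh12 had no count, Cdh6 and Cdh18 had 2 and 6 counts over all libraries, and Cdh9 had 10 counts in Trp53_KO and 3 in Trp53_WT. The Cdh9 ratio was 3.25 with an exact 95% counting interval of 0.838 to 18.4, which includes no difference. Cdh22, with 46 counts in Trp53_KO and 20 in Trp53_WT, was called higher with a log2 fold change of 1.15 ± 0.33 (SE; edgeR p after Benjamini-Hochberg adjustment = 0.027). That call was lost in DESeq2 (adjusted p = 0.13) and when any of Trp53_KO replicates 1 and 3 and Trp53_WT replicates 1 and 2 was left out (edgeR, adjusted p of 0.079, 0.088, 0.057 and 0.085); the alternatives spanned 0.025 to 0.13.

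Cadherins that mark other cell types were absent or near it. Cdh5, the VE-cadherin gene of endothelium, and Cdh13, which encodes the membrane-tethered T-cadherin, had 0 counts in every library. A count of 0 over a group allows up to 3 counts, or 0.0546 CPM in Trp53_KO and 0.0559 CPM in Trp53_WT, for counting error only. Cdh5 was thus at 0 in libraries in which another endothelial marker, Pecam1, rose from 0.153 to 1.95 CPM. Kdr, Emcn, Cldn5, Erg and Sox17 also had no count, and the 10 listed endothelial markers summed to 17.4 to 18.8 CPM in Trp53_KO against 29.6 to 30.9 CPM in Trp53_WT, most of it from Flt1. Cdh11, known from mesenchymal cells, had 30 counts in Trp53_KO and 22 in Trp53_WT and was not tested, with a ratio of 1.33 (exact 95% counting interval 0.743 to 2.42).

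**Figure D2:**
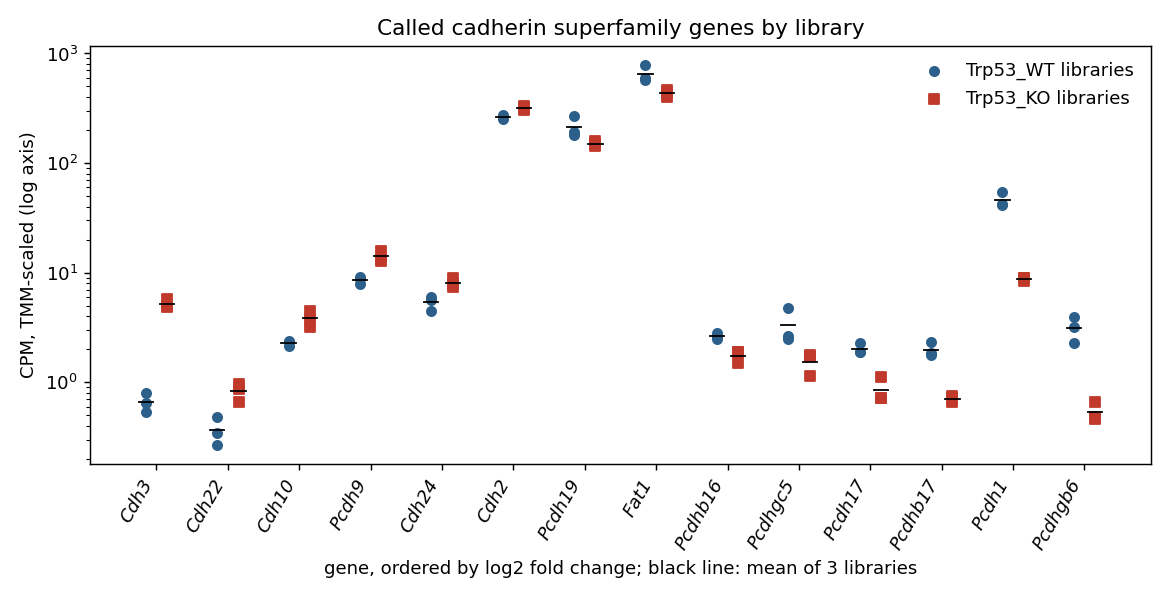
CPM on a log axis of the 14 called members in each library, blue circles for Trp53_WT and red squares for Trp53_KO, with a black line at the mean of 3 libraries. In each of the 14 genes the groups do not overlap, and Trp53_WT replicate 1 is the highest blue point of Fat1 (786.2 CPM), Pcdh19 (270.1 CPM), Pcdh1 (54.9 CPM) and Pcdhgc5 (4.79 CPM). It is also the highest blue point of Pcdhgb6, Pcdh17 and Pcdhb16, which were lower in Trp53_KO, and of Cdh2, which was higher.

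Fat1 was the only tested gene of the Fat family. It encodes an atypical cadherin with a very long extracellular part, and it was at 438.6, 404.0 and 468.9 CPM in Trp53_KO and at 786.2, 595.0 and 574.1 CPM in Trp53_WT (chromosome 8, 44935447 to 45052257). All Trp53_KO libraries lay below all Trp53_WT libraries, with a log2 fold change of -0.58 ± 0.12 (SE; edgeR p after Benjamini-Hochberg adjustment = 0.0045). Without Trp53_WT replicate 1 it was -0.42 (edgeR, adjusted p = 9.1e-05). Fat4 had no count, Fat3 had 1 and Fat2 had 10 over all libraries.

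The Dachsous genes encode large cadherins that pair with Fat proteins on the next cell, Dchs1 being the known partner of Fat4. Like Fat4, Dchs1 was nearly silent, with 2 counts in Trp53_KO and 1 in Trp53_WT. Dchs2 was at 5.86, 5.37 and 5.48 CPM in Trp53_KO and at 6.75, 3.46 and 3.70 CPM in Trp53_WT, so the library that stands apart sat above all Trp53_KO libraries and the other pair sat below them. Dchs2 was not called (log2 fold change 0.29 ± 0.23 SE; edgeR p after Benjamini-Hochberg adjustment = 0.38). With Trp53_WT replicate 1 left out Dchs2 was called at a log2 fold change of 0.64 (edgeR, adjusted p = 0.0033; the alternatives spanned 0.0033 to 0.73).

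Delta protocadherins are single genes outside the clusters, and the delta-1 and delta-2 groups differ in their number of extracellular repeats. Among delta-1 genes, Pcdh1, on chromosome 18 and known from epithelia of the airways, showed the largest fall outside the clusters. Pcdh1 was at 9.03, 8.39 and 8.99 CPM in Trp53_KO and at 54.9, 41.3 and 42.0 CPM in Trp53_WT. The groups lay far apart, and the fitted fall was 5.21-fold (log2 fold change -2.38 ± 0.13 SE; edgeR p after Benjamini-Hochberg adjustment = 7.1e-07). Without Trp53_WT replicate 1 the Pcdh1 log2 fold change was -2.24. Pcdh9 (chromosome 14, 93013410 to 93890679) moved the other way, from 8.78, 9.05 and 7.88 CPM in Trp53_WT to 15.9, 13.7 and 12.8 CPM in Trp53_KO (log2 fold change 0.72 ± 0.12 SE; edgeR p after Benjamini-Hochberg adjustment = 0.0012). Pcdh7 (chromosome 5, 57717967 to 58133230), the most abundant delta-1 gene, was at 127.1 ± 10.6 CPM in Trp53_KO and 131.8 ± 5.1 CPM in Trp53_WT (SD, n = 3), a difference within the spread (edgeR p after Benjamini-Hochberg adjustment = 0.65).

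Among delta-2 genes, Pcdh17 fell. Pcdh17 (chromosome 14, 84443563 to 84539002) was at 0.714, 0.724 and 1.12 CPM in Trp53_KO and at 2.29, 1.88 and 1.88 CPM in Trp53_WT (log2 fold change -1.22 ± 0.24 SE; edgeR p after Benjamini-Hochberg adjustment = 0.0041). Pcdh19, known as the X-linked gene of a form of epilepsy (chromosome X, 133582860 to 133688987), was at 159.3, 142.6 and 149.6 CPM in Trp53_KO and at 270.1, 192.8 and 178.5 CPM in Trp53_WT. It had a log2 fold change of -0.51 ± 0.14 (SE; edgeR p after Benjamini-Hochberg adjustment = 0.020), which was -0.30 without Trp53_WT replicate 1 (edgeR, adjusted p = 0.0016). Its call was lost without Trp53_KO replicate 2 or 3 (edgeR, adjusted p of 0.078 and 0.068; the alternatives spanned 1.1e-05 to 0.078). Pcdh18 was at 24.5 ± 3.0 and 23.2 ± 1.4 CPM (SD, n = 3), which gave no call (edgeR p after Benjamini-Hochberg adjustment = 0.63). Pcdh8 and Pcdh10 had no count.

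Chromosome 14 carries 3 of the called members, which moved in different directions, and their promoters are shown for that reason. Cdh24 and Pcdh9 were higher in Trp53_KO and Pcdh17 was lower, while Pcdh8 and Pcdh20 on the same chromosome had no count. The windows run from 250 bases before to 50 after the start site, 5′ to 3′ on the strand of the gene, from RefSeq on GRCm38.p6, with each CG dinucleotide in capitals. They are chr14:54641315-54641614 on the minus strand for Cdh24, chr14:84443313-84443612 on the plus strand for Pcdh17 and chr14:93890630-93890929 on the minus strand for Pcdh9. Each start site is that of the GENCODE gene.
Cdh24: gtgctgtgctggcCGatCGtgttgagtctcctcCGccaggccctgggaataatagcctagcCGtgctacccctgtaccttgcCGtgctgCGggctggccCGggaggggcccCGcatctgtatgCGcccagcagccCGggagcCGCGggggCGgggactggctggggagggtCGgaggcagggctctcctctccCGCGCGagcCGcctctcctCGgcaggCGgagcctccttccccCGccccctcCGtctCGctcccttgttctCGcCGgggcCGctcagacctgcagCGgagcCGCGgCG
Pcdh17: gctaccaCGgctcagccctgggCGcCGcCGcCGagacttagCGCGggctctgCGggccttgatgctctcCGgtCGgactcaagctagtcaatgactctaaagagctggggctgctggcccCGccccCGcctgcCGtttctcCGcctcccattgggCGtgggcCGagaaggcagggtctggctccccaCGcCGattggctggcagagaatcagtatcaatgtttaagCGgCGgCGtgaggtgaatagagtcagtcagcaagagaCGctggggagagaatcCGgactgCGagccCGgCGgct
Pcdh9: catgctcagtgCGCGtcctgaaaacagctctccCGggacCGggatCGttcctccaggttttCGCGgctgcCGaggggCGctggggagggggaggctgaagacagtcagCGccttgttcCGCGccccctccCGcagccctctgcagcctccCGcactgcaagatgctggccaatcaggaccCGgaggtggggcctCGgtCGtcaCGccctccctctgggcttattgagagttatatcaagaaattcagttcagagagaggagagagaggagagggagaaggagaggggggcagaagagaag
The Cdh24 window held 30 CG, that of Pcdh17 26 and that of Pcdh9 18, where the median over 27025 genes with a window was 7. CG content therefore did not order these genes by direction.

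Windows on chromosome 18 were not used here. RefSeq windows matched 27 of the 37 members on other chromosomes, and the first window of each gene was used. Among the 10 of these that were tested, the median was 20.5 CG, from 2 in Cdh10 and Fat1 to 38 in Cdh22. Among the 17 untested it was 9, from 4 to 35. The ranges overlapped, and the silent gene Pcdh10 held 24 CG. For Fat1 and Cdh10 the RefSeq start lies 14761 and 1382 bases from the start of the GENCODE gene, and for the untested Pcdh15, Cdh12, Cdh18 and Fat2 it lies 722525, 662187, 487441 and 24307 bases away, so these windows may not be the promoter in use here. The E-box CAGGTG, searched on both strands, was in 4 of the 27 windows (Cdh7, Pcdh7, Fat1 and Pcdh15), and in 20% of the windows of all genes. A match is a description of the letters and no site.

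The clustered protocadherins lie in tandem on chromosome 18. In the alpha and gamma clusters each gene has its own large first exon, spliced to constant exons shared by the cluster, while beta genes are single exons without a constant part. Between 31.5% and 66.8% of the exon length of each gamma gene overlapped exons of another gene on the same strand in GENCODE M21, against at most 9.67% for beta genes. Reads in shared exons and in near-identical paralogs could be split or dropped by the counting, so values of single gamma genes are uncertain. All 14 alpha genes had 0 counts in all libraries. Of 22 beta genes 19 had a count and 7 were tested, and all 22 gamma genes had a count, of which 8 were tested.

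In the beta cluster, RNA came from the end of the array: the 7 tested genes were Pcdhb16 to Pcdhb22, the last genes in chromosomal order, and none of Pcdhb1 to Pcdhb15 was tested. Summed over the cluster, beta genes were at 11.4, 12.1 and 12.5 CPM in Trp53_KO and at 14.2, 14.6 and 14.6 CPM in Trp53_WT. The sums did not overlap, as was so for 46.0% of all tested genes, and their log2 ratio was -0.27. In counts, the cluster had 660 in Trp53_KO and 778 in Trp53_WT. The called genes Pcdhb16 and Pcdhb17 had 96 and 140 and 39 and 106 of these, while Pcdhb20 had 87 and 54 and Pcdhb21 70 and 50. The calls rest on these same counts, so the part of the called genes in the difference is no separate result. Within the cluster, Pcdhb17 was at 0.714, 0.664 and 0.745 CPM in Trp53_KO and at 1.75, 1.83 and 2.31 CPM in Trp53_WT. The fall was 2.76-fold (log2 fold change -1.47 ± 0.23 SE; edgeR p after Benjamini-Hochberg adjustment = 9.3e-04), and the share of beta counts held by Pcdhb17 went from 12.4%, 12.5% and 15.8% in Trp53_WT to 6.25%, 5.50% and 5.93%.

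Pcdhb16, next to it, was at 1.89, 1.87 and 1.49 CPM in Trp53_KO and at 2.84, 2.57 and 2.47 CPM in Trp53_WT (log2 fold change -0.58 ± 0.18 SE; edgeR p after Benjamini-Hochberg adjustment = 0.035). The Pcdhb16 call was lost in 9 of 13 alternatives, among them each fit without 1 library, DESeq2 (adjusted p = 0.17) and the fit with the replicate number as a block (edgeR, adjusted p = 0.061). Its adjusted p over the alternatives ran from 0.033 to 0.17. Pcdhb22, the most abundant beta gene at 4.72 ± 0.64 CPM in Trp53_KO and 5.28 ± 0.27 CPM in Trp53_WT (SD, n = 3), was not called (edgeR p after Benjamini-Hochberg adjustment = 0.42). Pcdhb20 had a log2 fold change of 0.64 and was not called (edgeR, adjusted p = 0.095), but passed without Trp53_WT replicate 1 at 0.85 (edgeR, adjusted p = 0.030; the alternatives spanned 0.030 to 0.25).

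**Figure D3:**
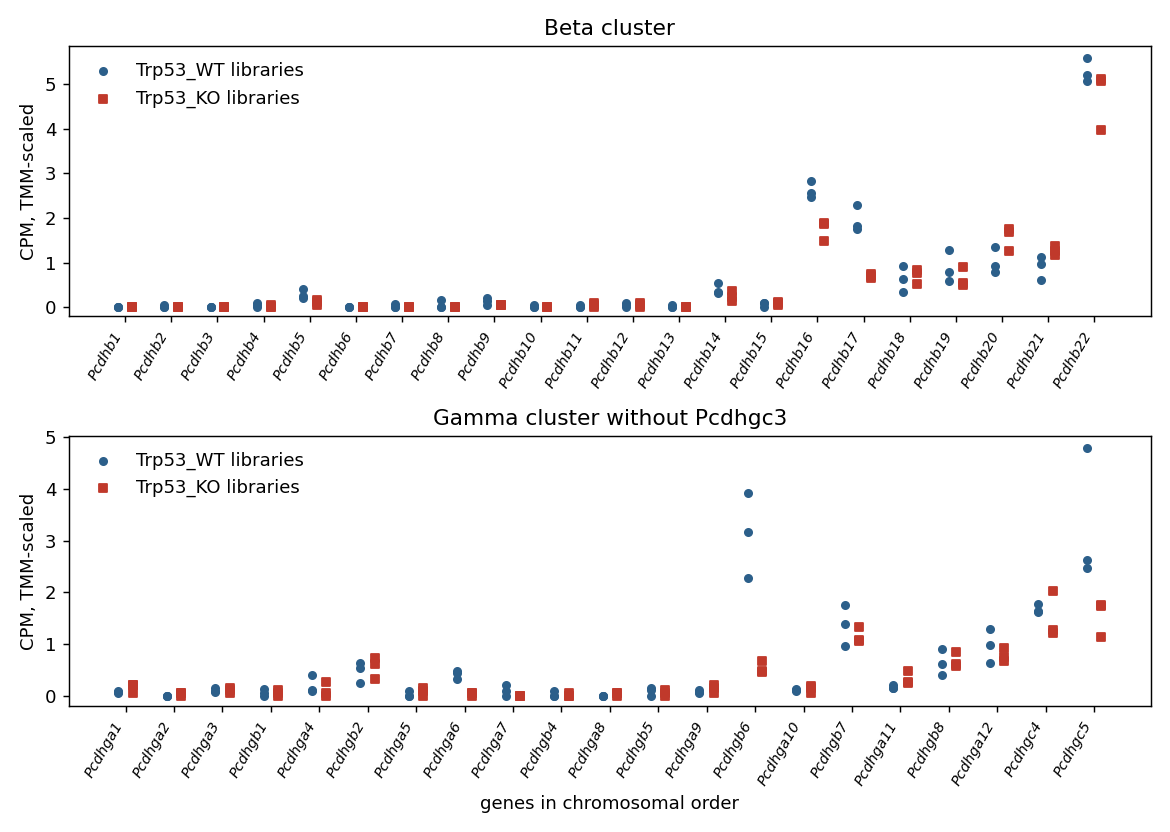
CPM of each beta gene (top) and each gamma gene except Pcdhgc3 (bottom) in chromosomal order, with 3 Trp53_WT libraries as blue circles and 3 Trp53_KO libraries as red squares. Pcdhb22 tops the beta cluster at 3.98 to 5.58 CPM, and Pcdhgb6 separates the genotypes at 2.28 CPM or more in Trp53_WT against 0.664 CPM or less in Trp53_KO.

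In the gamma cluster, Pcdhgc3, a C-type gene that is broadly expressed, held 84.8% to 87.9% of the cluster's counts in Trp53_KO and 81.9% to 84.8% in Trp53_WT. Pcdhgc3 was at 56.0, 43.8 and 53.1 CPM in Trp53_KO and at 73.6, 61.1 and 55.3 CPM in Trp53_WT, groups that overlapped. It was not called (log2 fold change -0.31 ± 0.12 SE; edgeR p after Benjamini-Hochberg adjustment = 0.091), and passed with all genes with a count in the fit (adjusted p = 0.032) and without Trp53_WT replicate 3 (adjusted p = 0.047), within a range of 0.032 to 0.25. Without Trp53_WT replicate 1 the Pcdhgc3 log2 fold change was -0.19. Pcdhgc5, another C-type gene, was at 1.73, 1.15 and 1.75 CPM in Trp53_KO and at 4.79, 2.47 and 2.63 CPM in Trp53_WT (log2 fold change -1.05 ± 0.30 SE; edgeR p after Benjamini-Hochberg adjustment = 0.025). With Trp53_WT replicate 1 left out the Pcdhgc5 log2 fold change was -0.71 and it stayed called. The Pcdhgc5 call was lost without Trp53_KO replicate 1, 2 or 3 (edgeR, adjusted p of 0.054, 0.090 and 0.055; the alternatives spanned 2.2e-04 to 0.090).

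Pcdhgb6 showed the largest fall of all tested members. It was at 0.459, 0.664 and 0.479 CPM in Trp53_KO and at 3.92, 2.28 and 3.16 CPM in Trp53_WT, a 5.76-fold fall (log2 fold change -2.52 ± 0.29 SE; edgeR p after Benjamini-Hochberg adjustment = 1.3e-04). Without Trp53_WT replicate 1 the Pcdhgb6 log2 fold change was -2.345 (edgeR, adjusted p = 5.1e-06). The other 6 gamma B genes together were at 2.30, 3.08 and 2.18 CPM in Trp53_KO and at 3.04, 2.33 and 2.63 CPM in Trp53_WT, which overlap. Pcdhgb6 therefore went from 56.3%, 49.5% and 54.6% of gamma B counts in the Trp53_WT libraries to 16.7%, 17.7% and 18% in the Trp53_KO libraries. Pcdhga6, a gamma A gene with 2 counts in Trp53_KO and 22 in Trp53_WT, was too low for the test. Its Trp53_WT to Trp53_KO ratio was 11.3 with an exact 95% counting interval of 2.77 to 98.8, and it passed when every gene with a count was fitted (edgeR p after Benjamini-Hochberg adjustment = 0.0014). It was named after its values were seen, as was Pcdhga7, with 0 counts against 5.

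Without Pcdhgc3, the gamma genes summed to 7.70, 7.85 and 8.62 CPM in Trp53_KO and 16.3, 10.9 and 11.9 CPM in Trp53_WT, a log2 ratio of -0.69. Without Trp53_WT replicate 1 this ratio was -0.50. In counts, these genes had 443 in Trp53_KO and 683 in Trp53_WT. The called genes Pcdhgb6 and Pcdhgc5 had 29 and 163 and 86 and 170 of these. Here too the calls rest on the same counts, so the part of the called genes in the difference is no separate result. The 6 gamma genes not called included Pcdhgb7 and Pcdhga12, with log2 fold changes of -0.23 and -0.29, and Pcdhgb2 and Pcdhgb8, at 0.22 and 0.09.

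Introns of the members gave a further readout, because the authors' deposited table lists repeat elements with the gene they lie in. It held 937 rows in 42 of the member genes, of which 90.8% were read in the direction of the gene. The values come from the same libraries, rows of a gene share its transcript, and no depth is given per row. At an FDR under 0.05, 2 rows or 0.213% were called in the authors' deposited table, against 0.672% of all rows. Both lie in Pcdh1 and were lower in Trp53_KO, a MER103C element in an intron with a log2 fold change of -4.85 (FDR 0.011) and an AT-rich tract in the 3' untranslated region with -4.73 (FDR 0.019) in the authors' deposited table.

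In tested members with 7 or more sense rows in introns, no median of these rows had the opposite sign to the gene value. The sizes differed: Dchs2 had a median of 0.51 in the authors' deposited table against 0.29 for the gene, and Cdh2 0.11 against 0.28. In the authors' deposited table the 7 sense rows in introns of Cdh3 were all above 0, with a median log2 fold change of 3.65. Of 12 such rows in Pcdh1, 1 was above 0, and their median was -2.46 in the authors' deposited table. Fat1 and Pcdh19 had medians of -0.39 over 98 rows and -0.31 over 85 rows in the same authors' deposited table, and Pcdh9 had 0.52 over 32 rows. For Cdh2, 140 of 244 rows were above 0 with a median of 0.11, and for Cdh1 and Pcdh7 the median was 0.00 over 21 and 208 rows (authors' deposited table).

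**Figure D4:**
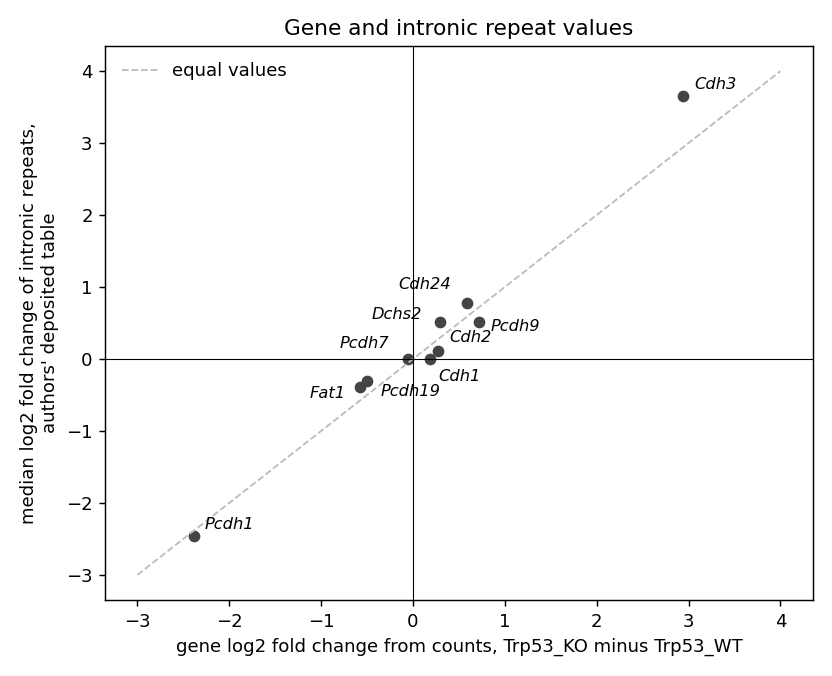
Median log2 fold change of sense repeat rows in introns, from the authors' deposited table, against the log2 fold change from gene counts, for the 10 tested members with at least 7 such rows. Cdh3 (2.94 and 3.65) and Pcdh1 (-2.38 and -2.46) lie at the ends, Cdh3 above the dashed line of equal values and Pcdh1 near it. The points share libraries on both axes.

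Genes that work with cadherins were counted from 6 lists. Of 21 tested catenins and plaque partners, 7 were higher and 4 lower (52.4% called, where the background was 30.3%). The genes of alpha-, beta- and p120-catenin were not called: Ctnna1 was at 416.8 ± 9.9 and 449.7 ± 6.6 CPM, Ctnnb1 at 703.9 ± 9.9 and 719.7 ± 30.9 CPM, and Ctnnd1 at 42.3 ± 0.62 and 38.9 ± 4.3 CPM in Trp53_KO and Trp53_WT (SD, n = 3; edgeR p after Benjamini-Hochberg adjustment of 0.17, 0.73 and 0.34). Jup, which encodes plakoglobin, a close relative of beta-catenin at cadherins, rose by 0.43 on the log2 scale, with 237.0 ± 21.4 CPM in Trp53_KO against 176.4 ± 7.2 (SD, n = 3; edgeR p after Benjamini-Hochberg adjustment = 0.0023). Arvcf, a catenin of the p120 family, rose by 2.06 ± 0.13 on the log2 scale (SE; edgeR, adjusted p = 2.8e-06). Of the receptor phosphatases known to act at cell contacts, Ptprf rose by 0.83, and Ptprm had 632 counts in Trp53_KO against 4 in Trp53_WT. Lima1, an actin-binding protein linked to alpha-catenin, fell by 0.76.

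Among superfamily genes that the symbol rule leaves out, 18 of 22 were not tested, 2 of the other 4 were higher and 1 was lower. The desmosomal cadherin Dsg2 went from 13.5 ± 6.5 to 70.6 ± 4.5 CPM and Dsc2 from 21.1 ± 0.77 to 40.1 ± 2.6 CPM (SD, n = 3; edgeR p after Benjamini-Hochberg adjustment of 6.6e-05 and 2.2e-05). Trp53_WT replicate 1 was the highest Trp53_WT library of Dsg2, at 20.9 CPM against 9.69 and 9.81, and the log2 fold change of Dsg2 was 2.41 with it and 2.86 without it. Celsr1, a cadherin of planar polarity, fell with a log2 fold change of -0.59 (edgeR, adjusted p = 0.010). Of 12 tested Fat and Dachsous pathway genes 2 were higher and none lower (16.7% called, below the 30.3% of all tested genes). They were named by the rule on lowest adjusted p: the receptor gene Fzd6 rose by 2.60 and Enah, a regulator of actin, by 0.26.

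Of 20 tested regulators of the clustered promoters, 5 were higher and 1 lower (30% called). Ctcf, the factor known to loop these promoters to their enhancers, was at 153.0 ± 2.6 and 152.4 ± 4.0 CPM (SD, n = 3; edgeR p after Benjamini-Hochberg adjustment = 0.95). The cohesin subunit gene Stag2 fell (log2 fold change -0.43), that of another subunit, Smc3, rose by 0.26 (edgeR, adjusted p = 0.048), and Rad21, Smc1a and Stag1 were not called. Dnmt3a, Dnmt3b and Trim28, genes of DNA methylation and silencing, rose by 0.45, 0.52 and 0.24, and Dnmt1 by 0.20 (edgeR, adjusted p = 0.037). Setdb1, Smchd1 and Wiz of the same list were not called (edgeR, adjusted p of 0.94, 0.96 and 0.41). Among 9 tested cytoplasmic partners of protocadherins only the FAK-family kinase Ptk2b was called (11.1%), higher by 1.17 (edgeR p after Benjamini-Hochberg adjustment = 1.9e-05). Of 8 tested repressors of the E-cadherin promoter, 2 were higher and 2 lower (50% called). Zeb2 rose by 0.54, Twist2, with 331 Trp53_KO counts and no Trp53_WT count, was at least 107.7-fold higher (taking 3 counts as the limit for that group), and Snai1 and Snai2 had log2 fold changes of -1.51 and -0.67. Over the 6 lists 19 of 74 tested genes were higher and 8 lower (36.5% called, where the background was 30.3%), and without Trp53_WT replicate 1 the number higher was 29.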

How the data were processed

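For the 6 libraries the authors deposited raw counts, 1 row per gene symbol. Per the labels' protocols, DNase-treated total RNA went into stranded total RNA libraries, and the tools named in the submitters' processing notes are STAR, featureCounts and edgeR, and the build is mm10. Their roles and settings: not given in the sources used here. Repeats come from a second file. The authors' deposited table of repeats gives a fold change, read as log2 because its median ratio to the gene's own log2 fold change was 1.06 over 792 called exon and 3' untranslated rows of genes past 0.5 in size, and an FDR, an adjusted p-value per row.

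Genes were fitted in edgeR 4.0.16 (R 4.3.3) with filterByExpr, TMM and a quasi-likelihood model with genotype as its only term, over all 13651 genes that passed, and Benjamini-Hochberg adjustment at 0.05. SE is the absolute log2 fold change over the square root of F and is approximate. On simulated data for this comparison (13651 genes) the fit called 53 of 100 genes changed by 0.5 on the log2 scale, 93 of 100 changed by 1 and 10 of 13451 unchanged ones. The simulation gave every gene the same dispersion and had no library that stands apart, so these rates may not hold for the real libraries. CPM values are TMM-scaled. Intervals and floors are exact at 95% or 3 counts and cover counting error only. Members and lists were chosen with earlier results of these data known. Named by rule were called members with a mean of at least 1 CPM in a genotype, 11 fixed members (Cdh1, Cdh2, Cdh3, Cdh5, Cdh11, Cdh13, Fat1, Fat4, Dchs1, Pcdh1 and Pcdhgc3) and up to 4 called genes per list with the lowest adjusted p. Other genes, such as Cdh22, Dchs2, Pcdhb20, Ctcf, Jup, Smc3 and the genes of alpha-, beta- and p120-catenin, were chosen after their values were seen. Alternatives used limma 3.58.1 and DESeq2 1.42.0. Repeat rows were placed by the authors' gene label. No library was left out of the main values.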

Additional observations from a re-analysis of the deposited data

How the results depend on the processing

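Of the 14 called members, 9 kept their call in every alternative in which they were tested (RLE or upper-quartile scaling, a filter at 1 CPM or none, a block, 1 library fewer, DESeq2, limma-voom), and 5 did not: Cdh22, Cdh24, Pcdh19, Pcdhb16 and Pcdhgc5. No called member changed direction in these alternatives. At an adjusted p under 0.01 there were 3 higher and 5 lower members, 1199 higher and 1379 lower genes among all tested, and 5 lower genes in the partner lists. With 1 library left out, higher members ranged from 4 to 7, the lowest without Trp53_KO replicate 1. Lower members ranged from 5 to 8, the lowest without Trp53_KO replicate 2 or 3. Partner genes ranged from 14 to 29 higher and 6 to 9 lower, and all genes from 1388 to 2418 higher and 1589 to 2566 lower. The cause was not tested. At an FDR under 0.01, 0 repeat rows in member genes were lower. The replicate numbers do not pair the libraries by any label or by shared deviations (r of -0.05, 0.08 and -0.12 across genes between same-numbered libraries). As a replicate block they left 6 higher and 7 lower members (Pcdhb16 lost). Low counts limit most clustered protocadherins.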
